A study of Rattus norvegicus with 72 samples.

Results

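The results below describe DNA methylation in the hypothalamus of female rat pups across the paternal-background table of smoothed methylation levels: 12 bisulfite sequencing libraries, 6 labelled Deletion and 6 labelled WT. The members were chosen by the table's own columns, so that every library with a level column entered, and they make up 12 of the 24 bisulfite libraries and 12 of the 72 libraries of the series. The series compared pups carrying a maternal- or paternal-derived UBE3A deletion with controls matched by litter, at postnatal days 2 (P2) and 9 (P9). The other 12 bisulfite libraries have their levels in a maternal-background table, and no library is in both tables.

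The WT group held 2 pups' libraries at P2 and 4 at P9, and the deletion group likewise held 2 at P2 and 4 at P9. Of the 12, 10 carry the parental label Paternal. The other two, 1 WT and 1 deletion library at P9, carry the label Maternal although their columns stand in the paternal table; they are called the maternal-labelled libraries here. Conversely, 4 libraries of the maternal table are labelled paternal. Apart from the UBE3A deletion no other allele, strain or agent is named in the labels, and no label says whether libraries of 1 group came from separate litters, so p-values measure only the spread between these samples. The table cannot show the deletion itself or test the tissue by marker expression, so genotype and tissue rest on the labels. Library names begin with JL3, JL4 or JL5: all 4 P2 libraries are of series JL5, which also holds 1 WT and 1 deletion library at P9, while JL3 and JL4 hold 3 against 3 libraries, all P9. Series JL3 holds only the 2 maternal-labelled libraries, so their parental label and their series cannot be told apart. What the name series stands for is not given in the sources used here. Replicates carry no numbers in the labels, and the replicate numbers below follow accession order within a labelled group and only name a library.

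Ube3a encodes an E3 ubiquitin ligase that marks proteins for breakdown. In mature neurons it is made from the maternal copy of the gene, while a long antisense transcript silences the paternal copy, and loss of the maternal copy causes Angelman syndrome in people. DNA methyltransferases place methyl groups on cytosines of CpG sites; in most mammalian tissues the bulk of CpG sites is methylated, and CpG-dense islands at gene starts stay low. In female cells 1 of the X chromosomes is inactivated, and CpG islands of the inactive X are methylated.

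The table listed 13875 regions, of which 13874 had a level in every library; the 1 without levels lies on chromosome Y. A level is the smoothed share of methylated CpG sites in a region, here in percent, and differences are in percentage points. The regions lay on 21 chromosomes (1 to 20 and X, coordinates on rn6). They held 5 to 89 CpG sites with a median of 6, and were 9 to 4156 bases wide with a median of 432 bases. The median region had a mean WT level of 76.9%, and the middle 80% of regions ran from 37.6% to 87.9%. How the submitters selected the regions, and whether the same genotype contrast was used to do so, is not given in the sources used here, so the counts below describe this table and not the genome. Gene annotation and sequence on rn6 were not used here, and regions are named by position only. No coverage accompanies the levels, so their depth is unknown.

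The typical level of the table was alike in deletion and WT libraries within the error of the libraries. The median level of the 6 deletion libraries ran from 76.1% to 77.5%, with a mean of 76.8% ± 0.634 (SD, n = 6). That of the 6 WT libraries ran from 73.1% to 77.8%, with a mean of 76.7% ± 1.83 (SD, n = 6). The lowest was P9 WT replicate 3, and the other 5 WT libraries lay between 76.6% and 77.8%. The deletion group was higher by 0.14 points (two-sided exact permutation test over 924 splits, p = 0.957). Without P9 WT replicate 3 the difference was −0.585 points (exact permutation p = 0.110), and without the 2 maternal-labelled libraries it was −0.0246 points (exact permutation p = 1), so the data gave the difference no stable sign.

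P9 WT replicate 3 was low at the quartiles as well as at the median. Its lower quartile was 59.8%, against 61.1% to 63.7% in the other 11 libraries. Its upper quartile was 81.1%, against 84.4% to 85.8%. In that library 28.5% of the regions were above 80%, against 38.6% to 43.8% in the other 11 libraries. At the other end, 5.20% of its regions were below 20%, inside the range of 3.75% to 5.81% over all 12. The 2 maternal-labelled libraries had the smallest shares below 20%, 3.75% in the WT and 4.01% in the deletion library.

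The first 2 axes of variation did not separate the libraries by genotype, and the third separated them within each age. The first principal component held 14.7% of the variance and set apart the maternal-labelled libraries, with scores of 818 for the WT and 538 for the deletion library against −388 to 6.72 for the other 10. The maternal-labelled libraries also make up all of series JL3. The second component held 11.2% and was led by P9 WT replicate 3, with a score of 759. The third held 11.1%. On it the P2 WT libraries scored 455 and 485 and the P2 deletion libraries 105 and 63.3, while the P9 WT libraries ran from −15.9 to 181 and the P9 deletion libraries from −445 to −158. The genotypes did not overlap on this axis at either age, in a table whose regions may have been selected on genotype. After each region's mean was removed, the closest pair of libraries was the maternal-labelled pair, which differ in genotype (r = 0.138 across 13874 regions). The median r was −0.0706 over the 30 pairs of the same genotype and −0.117 over the 36 pairs of different genotype. These correlations run across regions, which are not independent of each other.

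**Figure D1:**
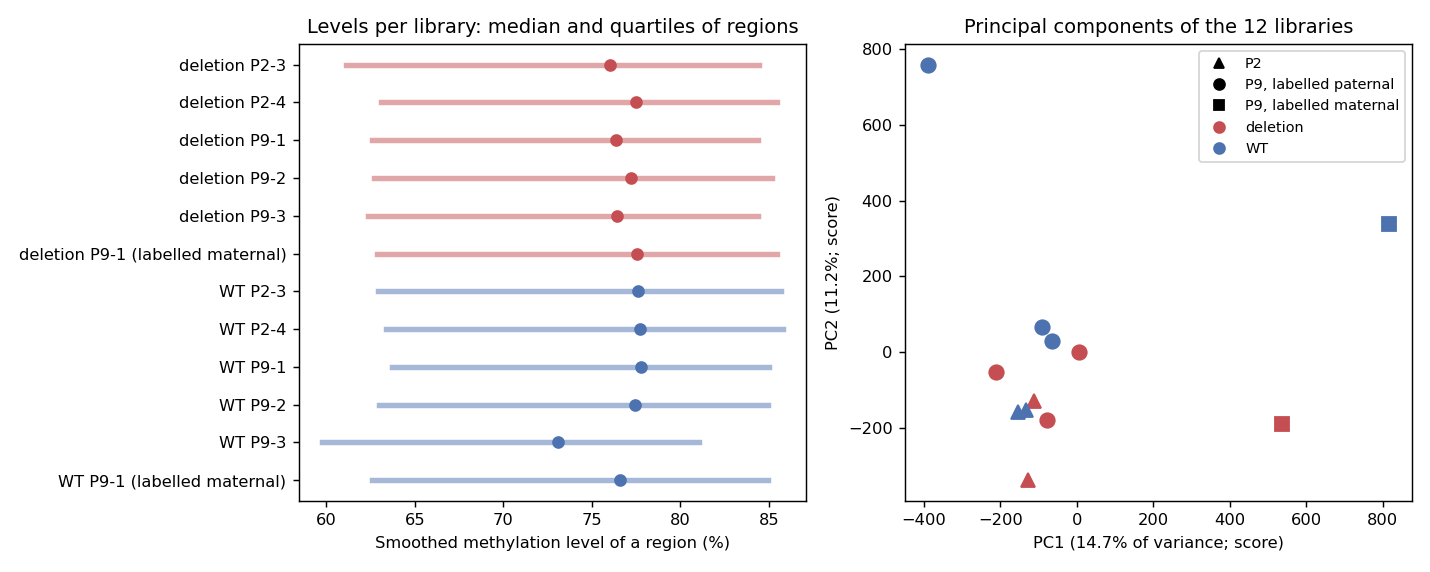
Left, the median level of each of the 12 libraries (point) with the range from the lower to the upper quartile of the regions (bar), in percent; right, the scores of the libraries on the first 2 principal components. The medians lie between 73.1% and 77.8% with P9 WT replicate 3 lowest, and the maternal-labelled libraries (squares) stand to the right of the other 10.

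Region by region, the deletion libraries were higher at 7206 of the 13874 regions (51.9%) and lower at 6668, after adjustment for age. The lean was small and its side depended on single libraries: 46.7% of regions were higher without P9 WT replicate 3, 49.8% without the maternal-labelled deletion library, and 51.3% to 54.1% without any 1 of the other 10. The median difference was 0.233 points and the median size 2.98 points. In the limma fit, 1 region passed a Benjamini-Hochberg adjusted p under 0.05 (0.00721% of the table), and its level was lower in the deletion libraries. At an unadjusted p under 0.05 there were 1073 regions (7.73% of the table), 568 higher (4.09%) and 505 lower (3.64%). The next lowest adjusted p after the called region was 0.321 (limma, Benjamini-Hochberg). The precision behind these counts is limited: the median residual SD was 6.03 points, with an 80% range over regions from 3.54 to 10.4, and the median 95% interval of a difference reached 7.44 points to either side. Differences above 10 points in size were found at 456 regions (3.29%) and above 20 points at 13 (0.0937%).

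The same fit on the 12 libraries of the maternal table, with its own regions, called 0 of 18335 regions (limma, Benjamini-Hochberg; lowest adjusted p 0.368). There, 1658 regions (9.04%) had an unadjusted p under 0.05. The counts come from different region sets, so no test of their difference was made.

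The called region, chr9:114732649-114733299, is 651 bases wide and holds 6 CpG sites. In the WT libraries it was nearly fully methylated: 98.1% and 97.4% at P2, 92.2%, 91.5% and 94.0% in P9 replicates 1, 2 and 3, and 97.8% in the maternal-labelled P9 library. In the deletion libraries it stood at 82.9% and 80.1% at P2, 82.0%, 78.9% and 85.1% in P9 replicates 1, 2 and 3, and 79.7% in the maternal-labelled P9 library. Every deletion library was below every WT library, with a gap between 85.1% and 91.5%. The group means were 81.4% ± 2.32 and 95.1% ± 2.97 (SD, n = 6 each). The deletion level fell by 13.7 points (SE 2.06, 95% interval −18.0 to −9.42; limma, Benjamini-Hochberg adjusted p = 0.0238).

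The size of that difference was similar in each subset examined, but the call was not kept in each. It was −16.2 points at P2 and −12.5 points at P9, −13.8 points within series JL5 and −13.6 points within JL3 and JL4. With the 2 maternal-labelled libraries left out it was −12.8 points (limma, Benjamini-Hochberg adjusted p = 0.197), and on a log2 odds scale the adjusted p was 0.104. Leaving out 1 library at a time gave −14.6 to −13.01 points with adjusted p from 0.0168 to 0.173, and the region stayed called in 3 of the 12 fits, those without the maternal-labelled deletion library, P9 WT replicate 2 or P9 deletion replicate 3. Any of the other 9 libraries, left out, ended the call. The nearest other region of the table lies 40533 bases away and differed by −4.83 points, which did not pass the threshold. The called region overlaps no region of the maternal table.

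A count that needs no model gave a similar picture. The 6 deletion and 6 WT libraries did not overlap at 52 regions (0.375% of the table), 25 with the deletion libraries higher (0.18%) and 27 with them lower (0.195%). With exchangeable libraries, full separation in either direction has a probability of 0.0022 at a region, so part of such a count arises by chance. The 25 higher regions lay on 13 chromosomes, had a median WT level of 77.4% and a median width of 860 bases, and differed by 4.58 to 17.0 points. The 27 lower regions lay on 11 chromosomes, had a median WT level of 83.7% and a median width of 431 bases, and differed by 4.88 to 25.1 points in size. Over the whole table the median WT level was 76.9% and the median width 432 bases. These figures describe regions picked on the contrast and carry no test.

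**Figure D2:**
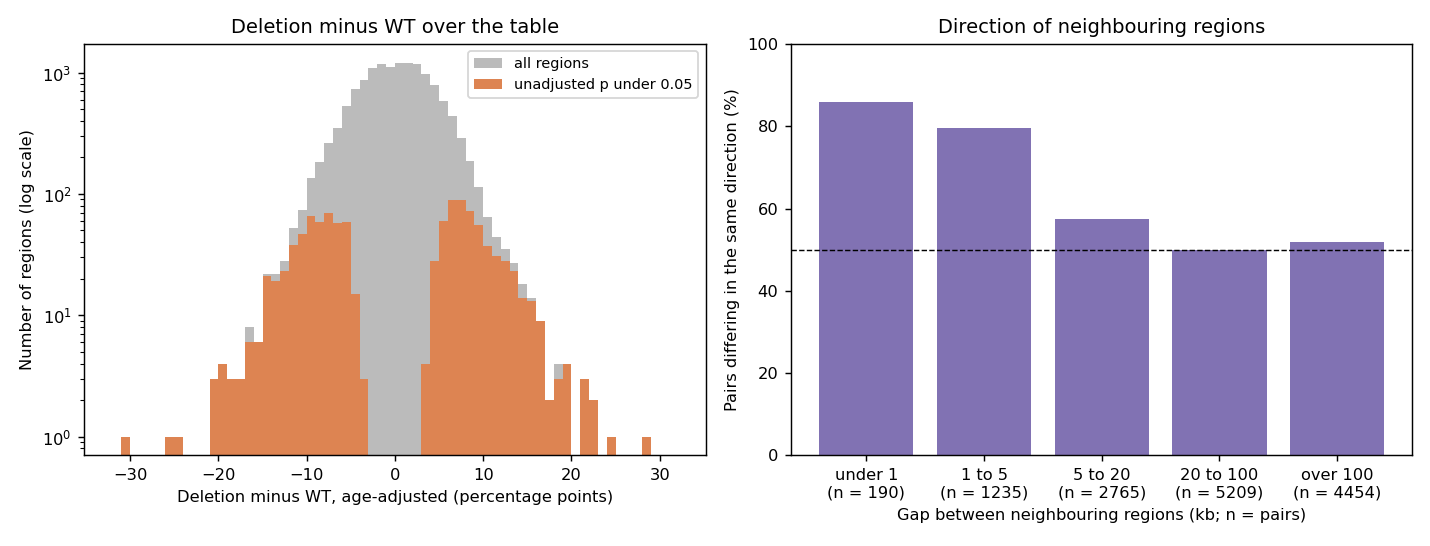
Left, the number of regions (log scale) by deletion minus WT difference in percentage points, all regions in grey and those with an unadjusted p under 0.05 in orange; right, the share of neighbouring region pairs that differ in the same direction, by gap in kilobases, with 50% dashed. The differences spread to both sides from −31.0 to 28.0 points, and the shared direction drops from 85.8% of pairs under 1 kb apart to about 50% beyond 20 kb.

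The 10 lower regions named by rule, the called one among them, were those of lowest p in that direction, and none of the other 9 passed the adjusted threshold. The largest difference in the table was at chr1:36750550-36750750, which is dense in CpG sites, with 29 in 201 bases. The deletion libraries there had 12.8%, 48.2% and 71.1% (lowest, median, highest) and the WT libraries 64.6%, 78.7% and 95.3%. The groups overlapped, and the difference was −31.0 points (SE 6.81; limma unadjusted p = 0.000194, Benjamini-Hochberg adjusted p = 0.607). The highest of the deletion libraries was the maternal-labelled one. Without it the difference was −37.4 points and the region passed (limma, Benjamini-Hochberg adjusted p = 0.0384). Without both maternal-labelled libraries the difference was −34.8 points and the region did not pass (limma, Benjamini-Hochberg adjusted p = 0.149).

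The second lowest p was at chr13:110010442-110011689, 1248 bases with 6 CpG sites. Deletion levels were 35.3%, 52.1% and 68.1% and WT levels 70.0%, 77.4% and 83.2%, with no overlap. The difference was −25.1 points (SE 4.86; limma unadjusted p = 4.63e-05, Benjamini-Hochberg adjusted p = 0.321). A region of the maternal table, measured in other libraries, shares only 164 of these 1248 bases. Its WT levels were lower, at 13.4%, 22.1% and 55.7%, so it is not a second measure of the same sites. It differed by −7.34 points (limma, Benjamini-Hochberg adjusted p = 0.704). At chr3:6478759-6479372 (614 bases, 5 CpG sites) deletion levels of 48.0%, 68.7% and 78.2% stood below WT levels of 81.2%, 86.8% and 90.6%. The groups did not overlap, and the difference of −18.3 points (SE 4.09) was −5.49 points at P2 and −24.8 points at P9.

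A further 3 lower regions had intermediate or high WT levels and wider spreads. At chr9:10949456-10950402, which holds 16 CpG sites in 947 bases, deletion levels were 17.7%, 27.2% and 49.3% and WT levels 46.1%, 48.5% and 54.8%. Only the maternal-labelled deletion library reached into the WT range there. The difference was −20.7 points (SE 5.10), and −24.9 points without the maternal-labelled pair. At chr19:19517710-19518445 (736 bases, 5 CpG sites) deletion levels were 39.2%, 51.6% and 63.3% and WT levels 59.4%, 72.2% and 82.4%. At chr7:123398328-123399102 (775 bases, 5 CpG sites) deletion levels were 59.4%, 71.2% and 78.8% and WT levels 74.3%, 86.1% and 88.4%, with 1 WT library apart at 74.3%. Differences were −19.6 points (SE 4.99) and −14.0 points (SE 3.60).

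The remaining 3 lower regions were chr7:12846292-12846736 (445 bases, 6 CpG sites), chr8:49746489-49746745 (257 bases, 5 CpG sites) and chr5:24685068-24685129 (62 bases, 6 CpG sites). WT levels were near the ceiling at the chr7 and chr5 regions and lower at the chr8 region. At the first, deletion levels were 75.1%, 84.7% and 94.0% and WT levels 91.5%, 94.5% and 97.0%. At the second, they were 62.3%, 73.9% and 77.8% against 74.97%, 84.3% and 91.7%. At the third, they were 77.9%, 82.0% and 94.6% against 92.4%, 94.3% and 96.0%. In each the groups overlapped by 1 or a few libraries, and the differences were −10.6 points (SE 2.48), −13.1 points (SE 3.31) and −9.81 points (SE 2.54). The last 8 of the 10 lower regions in order of p shared an adjusted p of 0.607 (limma, Benjamini-Hochberg).

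The 10 higher regions named by rule had unadjusted limma p-values from 0.000198 to 0.00123 and a Benjamini-Hochberg adjusted p of 0.607, so none passed. The lowest p was at chr5:170290796-170291268 (473 bases, 10 CpG sites). Deletion levels were 70.3%, 78.4% and 88.9% and WT levels 54.3%, 60.003% and 71.96%, and the difference was 18.5 points (SE 4.08). The groups overlapped by the maternal-labelled WT library, which was the highest of its group. The maternal table covers this region too and differed there by 6.58 points (limma, Benjamini-Hochberg adjusted p = 0.686).

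At 4 of the 10 the groups did not overlap. At chr7:130019987-130021066 (1080 bases, 5 CpG sites) deletion levels were 65.3%, 69.5% and 74.0% and WT levels 44.3%, 53.5% and 57.7%, a difference of 17.0 points (SE 3.96). At chr4:157988921-157989511 (591 bases, 11 CpG sites) deletion levels were 86.4%, 89.2% and 93.5% and WT levels 77.3%, 81.3% and 84.3%, a difference of 9.07 points (SE 2.29). At chr1:222210966-222212230 (1265 bases, 6 CpG sites) they were 84.8%, 86.6% and 91.4% against 70.3%, 78.5% and 81.4%, a difference of 9.98 points (SE 2.56). Apart from the first of these, the lowest deletion and the highest WT library were close to each other. At chr8:122254306-122254424 (119 bases, 5 CpG sites) levels of 83.7%, 88.0% and 91.6% stood against 70.3%, 78.7% and 82.4%, a difference of 10.1 points (SE 2.69).

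The other 5 higher regions overlapped between groups. The widest spread was at chr20:5526705-5527508 (804 bases, 8 CpG sites), with deletion levels of 37.8%, 51.5% and 72.9% and WT levels of 27.4%, 31.3% and 38.5%. Its difference of 21.8 points (SE 5.55) was the largest of the 10. The lowest levels were at chr3:11184364-11184751 (388 bases, 7 CpG sites), with 20.9%, 30.8% and 42.1% in the deletion and 9.40%, 14.9% and 23.6% in the WT libraries, a difference of 16.2 points (SE 4.27). In the maternal table the overlapping region differed by 5.96 points (limma, Benjamini-Hochberg adjusted p = 0.660).

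At the last 3 the WT level was at least 66.5% in every library. At chr17:33978226-33978427 (202 bases, 6 CpG sites) deletion levels were 87.4%, 96.4% and 98.3% and WT levels 69.7%, 84.6% and 91.0%. At chr15:25400757-25400787, only 31 bases wide with 8 CpG sites, they were 82.5%, 90.3% and 94.9% against 66.5%, 75.8% and 88.0%. At chr3:156899821-156900236 (416 bases, 5 CpG sites) they were 79.4%, 88.2% and 95.6% against 73.0%, 75.6% and 81.0%. The differences were 12.2 points (SE 3.10), 12.6 points (SE 3.29) and 11.7 points (SE 3.04). The region of the maternal table that overlaps the chr15 region was lower with deletion, by −6.07 points (limma, Benjamini-Hochberg adjusted p = 0.550).

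**Figure D3:**
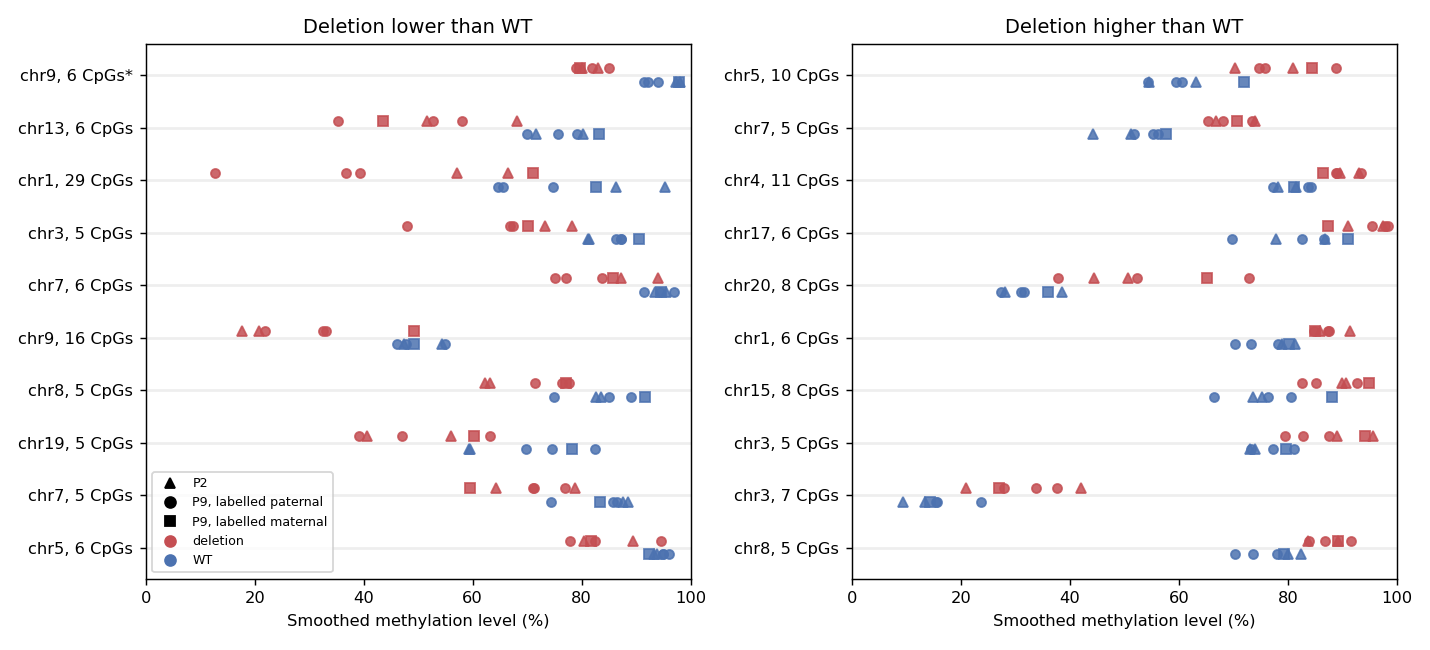
Levels in percent of the 10 lower (left) and 10 higher (right) named regions, labelled by chromosome and number of CpG sites, in order of unadjusted p from the top; each point is 1 library, red deletion, blue WT, with shape giving age and parental label. The asterisk marks the called region, where all deletion libraries lie below 85.1% and all WT libraries above 91.5%; at most other regions the points of both groups touch or overlap.

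All 20 named regions had the same sign at P2 as at P9, in series JL5 as in JL3 and JL4, and without the maternal-labelled libraries. They were chosen on the contrast of all 12 libraries, so that sign is a description. Their sizes moved more. Without the maternal-labelled libraries the higher regions differed by 9.81 to 20.3 points and the lower ones by −34.8 to −9.63 points.

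Nearby regions differed in the same direction more often than distant ones. Of 190 neighbouring pairs with a gap under 1000 bases, 163 (85.8%) differed in the same direction (r = 0.556 across pairs). At gaps of 1000 to 5000 bases it was 984 of 1235 (79.7%, r = 0.634), and at 5000 to 20000 bases 57.5% of 2765. Beyond that the share was 49.9% and 52.0%. Both members of a pair come from the same libraries and smoothed levels, and the part of smoothing in this was not tested.

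Of the 20 named regions, 5 had another region within 5000 bases, and all 5 neighbours differed in the direction of the named region. The chr20 region had chr20:5529268-5530027 at 1759 bases, which differed by 18.3 points. The region on chr1 at 222210966 had chr1:222206346-222208526 at 2439 bases, which differed by 12.9 points. On the lower side, chr8:49747757-49748015 lay 1011 bases from its named region and differed by −9.63 points. On chr5, chr5:24689816-24690826 lay 4686 bases away and differed by −9.58 points. The neighbour of the chr9 region with 16 CpG sites, 3294 bases away, differed by −5.69 points. None of these neighbours passed the adjusted threshold.

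The share of regions with an unadjusted p under 0.05 varied with level. Among the 638 regions with a mean over the 12 libraries below 20% it was 1.72%, and among the 5470 regions at 80% or more it was 9.56%. In between it was 6.80%, 7.01% and 6.94% for the classes from 20%, 40% and 60%. The spread ran the other way at the top: the median within-group SD was 4.75 points at 80% or more and 9.17 points at 40% to 60%. Differences over 10 points were rare among highly methylated regions, 0.640% of them, and below 20%, where 1.88% of regions passed that size. They were most frequent at 40% to 60%, with 10.3% of regions. The deletion libraries were higher at 54.9% of the regions at 80% or more and at 50.8% of those from 60% to 80%. Without P9 WT replicate 3, the library with the fewest regions above 80%, these shares were 47.8% and 45.6%, so the lean changed side.

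Regions with more CpG sites differed by more. The median size of the difference was 2.67 points at the 6735 regions with 5 CpG sites, 3.02 points at 6 or 7, 3.43 points at 8 or 9, 4.002 points at 10 to 19 and 5.75 points at the 127 regions with 20 or more. The share with an unadjusted p under 0.05 was 6.80%, 7.57%, 10.5%, 9.91% and 12.6% in the same order. The within-group SD was also largest in the last class, at 9.83 points, and its median WT level was 25.4%, so CpG number, level and spread go together here and their parts were not tested. By width, the share was 5.72% below 100 bases, 9.44% at 1000 to 2000 bases and 11.9% at the 336 regions of 2000 bases or more.

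Of the 5 regions richest in CpG sites, 4 were low to intermediate in level, and the fifth, with 72 CpG sites, was nearer to the table's typical level. The richest, chr1:11906731-11907334 (604 bases, 89 CpG sites), had deletion levels of 21.1%, 43.9% and 73.5% and WT levels of 18.1%, 36.2% and 79.95%. The groups covered the same range, with a difference of 3.62 points (SE 8.88). Its overlapping region in the maternal table differed by 20.4 points (limma, Benjamini-Hochberg adjusted p = 0.511). Near it on the same chromosome, chr1:11915917-11916826 (910 bases, 62 CpG sites) had deletion levels of 16.3%, 31.7% and 36.2% and WT levels of 7.22%, 30.1% and 38.3%, a difference of 3.73 points (SE 5.597). At both, leaving out P9 WT replicate 1 turned the sign.

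The region chr1:39468248-39470051 (1804 bases, 72 CpG sites) stood at 70.5%, 78.6% and 92.5% in the deletion and 66.7%, 69.4% and 79.96% in the WT libraries. It was the only 1 of the 5 with an unadjusted p under 0.05 (difference 9.56 points, SE 4.15; limma unadjusted p = 0.0321, Benjamini-Hochberg adjusted p = 0.630), with −0.27 points at P2 and 14.5 points at P9. On the X chromosome, chrX:156226177-156226972 (796 bases, 58 CpG sites) had deletion levels of 27.8%, 37.8% and 49.2% and WT levels of 39.2%, 46.0% and 64.3%, a difference of −9.78 points (SE 5.44) that was −5.28 points without P2 WT replicate 4. At chr14:46565208-46566204 (997 bases, 44 CpG sites) levels ran from 2.90% to 52.4% in the deletion and from 2.74% to 60.7% in the WT libraries. There the difference was 0.359 points (SE 9.13), with a sign that turned when any of 5 libraries was left out. A region of the maternal table that shares 255 of the 997 bases differed by 32.9 points (limma, Benjamini-Hochberg adjusted p = 0.388).

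Among chromosomes, X held the largest share of higher regions. The deletion libraries were higher at 172 of its 258 regions (66.7%), with a median difference of 2.24 points, against 48.5% (chromosome 9) to 59.1% (chromosome 11) elsewhere. X also had the lowest typical level, with a median WT level of 62.1%. Of its regions, 26 (10.1%) had an unadjusted p under 0.05, and none had groups that do not overlap. Chromosomes were compared after these values were seen.

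Counted over libraries, the X difference stayed within their spread. The median X level was 62.0%, 63.8% and 65.3% (lowest, median, highest) in the deletion and 57.5%, 62.8% and 65.1% in the WT libraries. The means were 63.5% ± 1.19 and 62.2% ± 2.55 (SD, n = 6 each), a difference of 1.39 points (two-sided exact permutation p = 0.275, Benjamini-Hochberg adjusted over 21 chromosomes p = 0.983). It was 1.89 points without the maternal-labelled libraries (exact permutation p = 0.143) and 1.28 points without P9 WT replicate 3 (exact permutation p = 0.392). The lowest X median, 57.5%, was that of P2 WT replicate 4, and without this library the difference was 0.458 points (exact permutation p = 0.543) and the share of higher X regions 60.5%.

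The lowest p among the 21 chromosomes was 0.115, for chromosome 11 (exact permutation). Without P9 WT replicate 3, the lowest were for chromosomes 2, 6 and 7, all lower in the deletion libraries, by −1.04, −0.895 and −1.01 points (exact permutation p = 0.00866, 0.0281 and 0.0325). Adjusted over the 21 chromosomes by Benjamini-Hochberg, the lowest of these exact permutation p-values was 0.182.

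At P2, where 2 deletion libraries stood against 2 WT libraries, limma with Benjamini-Hochberg adjustment called 0 regions (0% of the table; lowest adjusted p 0.275). At an unadjusted p under 0.05 there were 840 (6.05%), 326 higher (2.35%) and 514 lower (3.7%). At P9, with 4 against 4, 0 regions were called (0%; lowest adjusted p 0.189), and 948 (6.83%) had an unadjusted p under 0.05, 614 higher (4.43%) and 334 lower (2.41%). The median 95% interval reached 12.95 points to either side at P2 and 9.16 points at P9, and regions differ in precision around these medians. The deletion libraries were higher at 45.2% of regions at P2 and 55.1% at P9. When each library was centred on its own median level, these shares were 51.5% and 49.8%, so the sign of the lean at each age turned with the scaling.

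The 2 ages come from different libraries, and their differences had the same sign at 7856 of 13874 regions (56.6%; r = 0.140 across regions). Of the 840 regions with an unadjusted limma p under 0.05 at P2, 58 also had one at P9, where 948 of all regions (6.83%) did. Of these 58, 42 had the same sign. The p-values of both ages use the same estimate of spread from all libraries, so they are not independent. Split by name series instead, the sign was shared at 8052 regions (58.0%, r = 0.153). Of the 866 regions with an unadjusted limma p under 0.05 in JL5, 53 also had one in JL3 and JL4, where 810 of all regions (5.84%) did. Of these 53, 41 had the same sign. Each correlation is a description over 13874 regions that share libraries and, at short distance, neighbours.

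**Figure D4:**
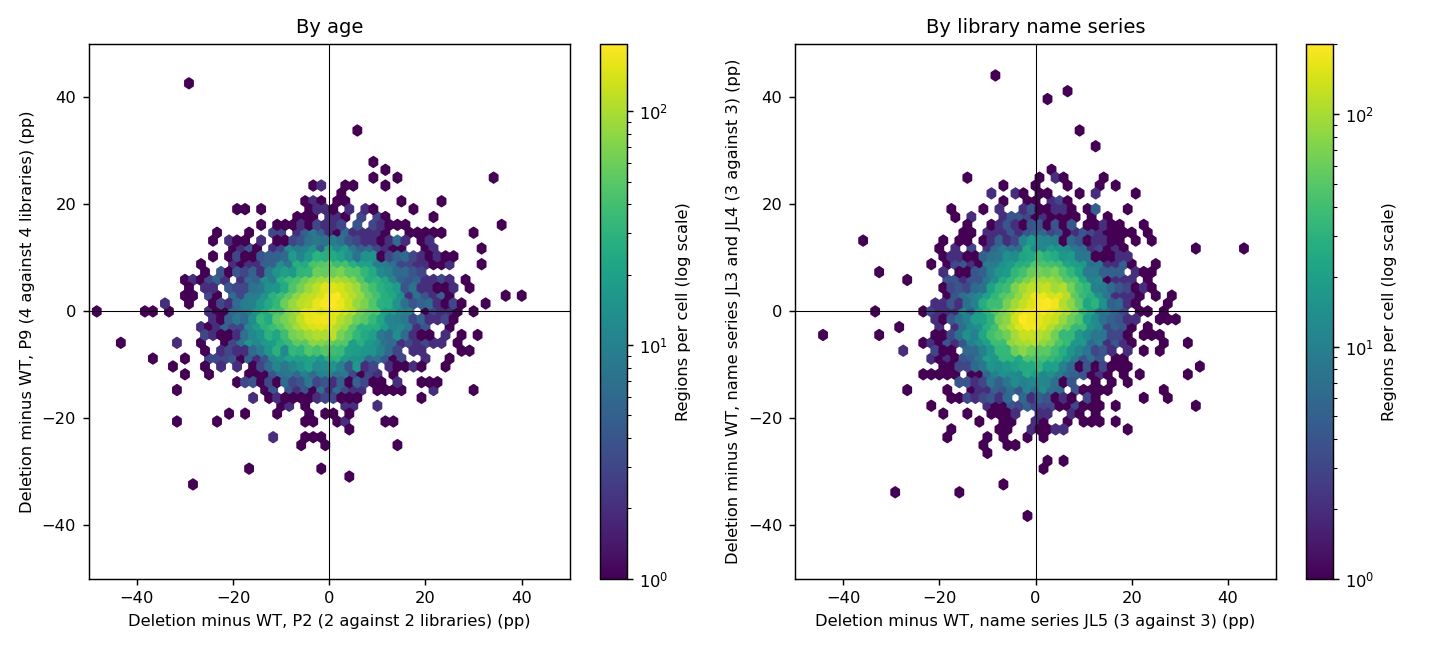
Deletion minus WT differences in percentage points (pp) of all 13874 regions, P9 against P2 (left) and series JL3 and JL4 against JL5 (right), each axis from its own libraries; colour gives the number of regions in a cell on a log scale. Both clouds are nearly round around 0, with r of 0.140 and 0.153.

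The deletion effect differed between the ages at 0 regions by the interaction contrast (0%; limma, Benjamini-Hochberg; lowest adjusted p 0.470), and 604 regions (4.35%) had an unadjusted p under 0.05. Of these, 410 (2.96%) had a higher and 194 (1.4%) a lower deletion effect at P9 than at P2. The median 95% interval of this contrast reached 15.9 points to either side. The lowest p was at chr10:34106768-34106833, 66 bases with 7 CpG sites. There the P2 deletion libraries had 29.5% and 34.0% and the P2 WT libraries 53.6% and 68.5%, while at P9 deletion libraries ran from 52.7% to 86.8% and WT libraries from 15.8% to 45.8%. The genotypes did not overlap at either age, in opposite directions: −29.3 points at P2 and 41.9 points at P9, a change of 71.2 points (SE 13.1; limma unadjusted p = 3.39e-05, Benjamini-Hochberg adjusted p = 0.470). Without the maternal-labelled deletion library the P9 difference was 48.9 points and passed (limma, Benjamini-Hochberg adjusted p = 0.0415).

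The other 5 regions named for age dependence likewise had P2 groups that did not overlap. At chr3:80541808-80542877 the P2 deletion libraries were at 46.0% and 57.1% and the P2 WT libraries at 82.2% and 88.6%, while the P9 ranges were 65.5% to 73.3% and 63.8% to 74.7%. At chr3:154534361-154534508 the P2 values were 55.9% and 59.3% against 76.2% and 84.7%, and the P9 ranges 63.9% to 77.4% against 46.4% to 62.9%. The P9 minus P2 change of the difference was 35.2 points (SE 7.96) and 37.6 points (SE 8.93).

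The change ran the other way at 3 regions. At chr3:6580617-6580776 the P2 deletion libraries were at 92.5% and 93.9% and the P2 WT libraries at 66.3% and 71.4%, against P9 ranges of 77.9% to 84.8% and 78.8% to 92.8%. At chr10:15211992-15212944 the P2 values were 84.6% and 87.4% against 62.5% and 68.4%, and the P9 ranges 63.1% to 76.2% against 77.7% to 80.8%. At the CpG-dense chr3:22055438-22055880, with 34 CpG sites, they were 42.4% and 46.6% against 28.7% and 32.6%, and 17.2% to 23.4% against 38.6% to 49.3%. These regions changed by −28.7 points (SE 5.78), −29.7 points (SE 6.76) and −38.1 points (SE 8.81), with adjusted p from 0.628 to 0.924 (limma, Benjamini-Hochberg).

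Between the ages themselves, with genotype as a covariate, limma with Benjamini-Hochberg adjustment called 0 regions (0%; lowest adjusted p 0.505), and 963 (6.94%) had an unadjusted p under 0.05, 411 higher (2.96%) and 552 lower (3.98%) at P9. P9 libraries were higher at 45.7% of regions, and at 52.3% once libraries were centred on their medians. All P2 libraries are of series JL5, so age and series go together in part. With the series as a further covariate 2 regions were called, both lower at P9: chr5:166591847-166592375 by −25.2 points and chr7:12954609-12956712 by −19.1 points (limma, Benjamini-Hochberg adjusted p = 0.000612 and 0.0237). Without that covariate they differed by −11.9 and −8.18 points. With it, P9 against P2 rests on the series JL5 libraries alone. The only P9 libraries of that series are P9 WT replicate 3, which had the lowest median level of all libraries, and P9 deletion replicate 3.

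The 8 regions named for age did not pass the adjusted threshold. The level at chr9:82618742-82619030 (289 bases, 7 CpG sites) was low at P2, with 3.38%, 6.73% and 7.53% (lowest, median, highest of 4), and 14.2%, 25.9% and 36.8% at P9 (8 libraries). The difference was 19.99 points (SE 4.41). At chr9:17822568-17822793 (226 bases, 5 CpG sites) the P2 levels were 57.2%, 69.0% and 75.9% and the P9 levels 73.3%, 87.7% and 95.2%. At chr17:12371815-12373309 (1495 bases, 8 CpG sites) they were 61.0%, 69.6% and 73.4% against 77.9%, 82.5% and 91.2%. At chr6:51356196-51356245 (50 bases, 8 CpG sites) they were 33.2%, 41.6% and 48.0% against 50.8%, 70.0% and 87.1%. The ages overlapped only at chr9:17822568 among these 4.

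Lower at P9 were 4 further named regions. At chr4:56979504-56979551 (48 bases, 5 CpG sites) the P2 levels were 39.7%, 42.1% and 51.5% and the P9 levels 13.5%, 21.2% and 34.8%. At chr20:13961239-13961644 (406 bases, 7 CpG sites) they were 88.0%, 89.9% and 91.8% against 54.6%, 74.1% and 84.1%. Neither of these overlapped between the ages, whereas the next ones did. At chr12:4462454-4462649 (196 bases, 5 CpG sites) the levels were 69.0%, 83.6% and 88.3% against 31.6%, 51.5% and 80.3%. At chr10:13865314-13865586 (273 bases, 5 CpG sites) they were 76.4%, 78.0% and 92.6% against 57.4%, 61.4% and 80.5%. Over the 8 regions the difference was −27.8 to 26.7 points, and all had an adjusted p of 0.505 (limma, Benjamini-Hochberg).

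The maternal table offers the same contrast in 12 other libraries. At least 1 base of overlap linked 1874 regions (13.5% of this table) to 1857 regions of that table (10.1% of it). The median overlap was 145 bases, so the differences of a linked pair can rest on different CpG sites. The deletion difference had the same sign in both tables at 931 of the 1874 (49.7%), 458 higher and 473 lower, with r = 0.0242 across regions. Among the 150 with an unadjusted p under 0.05 here, 78 had the same sign there. Of these 150, 17 also had an unadjusted p under 0.05 there, where 9.04% of all regions did. The sign was the same at 6 of the 17. The 4 shared regions whose groups do not overlap here had the same sign in 2 cases. At an overlap of at least 50% of both regions, 237 of 486 had the same sign (48.8%).

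**Figure D5:**
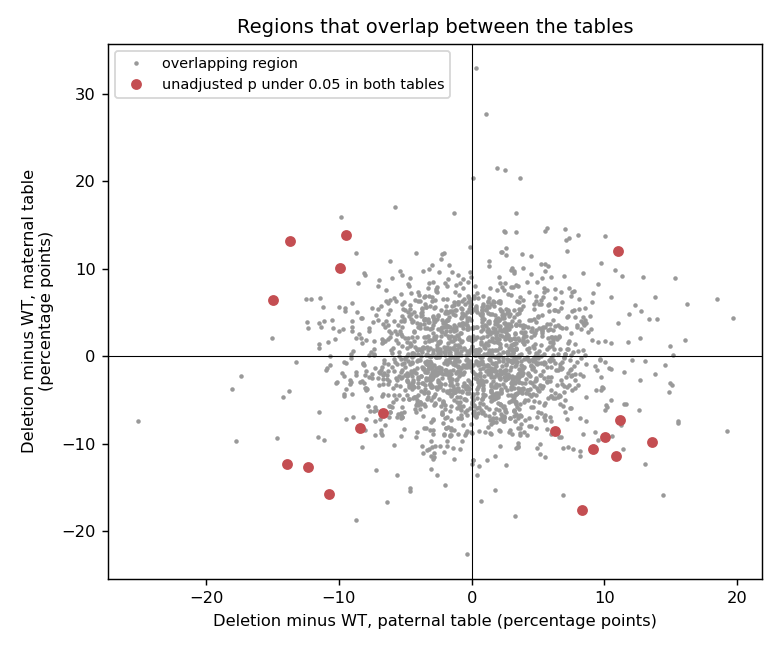
Deletion minus WT difference in percentage points at the 1874 regions that overlap between the tables, paternal table on the horizontal axis and maternal table on the vertical axis; red points have an unadjusted p under 0.05 in both. The cloud shows no slope (r = 0.0242), and 6 of the 17 red points lie in the quadrants of equal sign.

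The shared regions with the largest difference of the same sign in both tables are given as examples, and were picked for that sign. Values from the maternal table are those of the overlapping region there, which can hold largely different bases. The overlap was 67 of 933 bases at chr5:155802210-155803142, 77 of 1117 at chrX:37580048-37581164 and 241 of 2018 at chr20:10381521-10383538. At chr6:136721925-136722139 it was 202 of 215. Among the lower ones, chr7:10998851-10999341 (491 bases, 5 CpG sites) had the smallest unadjusted p in the maternal table. It had 63.8%, 67.5% and 73.4% in the deletion and 65.3%, 79.9% and 86.3% in the WT libraries here. The overlapping region of the maternal table, which shares 228 of the 491 bases, had 49.9%, 56.3% and 65.6% against 68.3%, 70.9% and 79.9%. The differences were −10.7 points (SE 3.70) and −15.7 points (SE 4.08), and the groups were apart in the maternal table only. Elsewhere on the same chromosome, chr7:11328236-11328680 (445 bases, 7 CpG sites) differed by −13.9 points (SE 5.83) here and −12.3 points (SE 3.65) there.

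Both X-linked examples on the higher side overlapped between groups. At chrX:107763111-107763486, with 39 CpG sites in 376 bases, deletion levels were 27.3%, 33.3% and 50.4% and WT levels 1.43%, 29.8% and 32.1%. The difference was 10.03 points (SE 5.53) here and 13.8 points (SE 5.87) in the maternal table. The WT value of 1.43%, in P2 replicate 4, was far below the next at 26.8%, and without that library the difference here was 4.70 points. Without P2 deletion replicate 3 it was 5.63 points, and within JL3 and JL4 it was 2.15 points. At chrX:37580048-37581164 (1117 bases, 5 CpG sites) the differences were 9.73 points (SE 4.58) and 10.7 points (SE 6.02).

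The other higher examples were chr5:155802210-155803142, chr10:90386053-90386555 and chr20:10381521-10383538, with 11.1, 10.8 and 11.4 points here and 12.01, 9.92 and 9.16 points there. Without the maternal-labelled libraries the chr20 region differed by 5.49 points here. The other lower examples were chrX:156230257-156231453, chr11:86520268-86521253 and chr6:136721925-136722139, with −12.3, −17.8 and −11.1 points here and −12.7, −9.70 and −9.59 points there. Without P2 WT replicate 4 the chr6 region differed by −5.35 points here. The region of this table nearest to the X-linked example, chrX:156229991-156230058 at 198 bases, differed the other way, by 6.10 points, and the CpG-rich chrX:156226177-156226972, further off on the same side, by −9.78 points. None of the 10 passed the adjusted threshold in either table, with adjusted p of at least 0.388 (limma, Benjamini-Hochberg).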

How the data were processed

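Per the labels' protocols, Illumina's TruSeq kit for DNA methylation was used to make whole-genome bisulfite libraries. Before deposit the authors smoothed the methylation levels and summarised them per region, so that the deposited values are fractions from 0 to 1 per region and library, without coverage, per the file headers and values. They were multiplied by 100 here. The build is rn6 (Rnor_6.0), per the submitters' processing notes; smoothing settings and the tool that found the regions are not stated in any source used here. The submitters' own statistics in the table were not used, and 0 level columns were left unmapped.

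Levels were fitted per region with limma 3.58.1 in R 4.3.3 (empirical Bayes with a variance trend, 9 residual degrees of freedom), with age as covariate, and adjusted by Benjamini-Hochberg over all 13874 regions. Age-specific differences and the interaction came from 4 group means, and the age effect had genotype as covariate. Median levels per library were compared by a two-sided exact permutation test (smallest p possible 0.0022). Overlaps used bedtools 2.31.1. The fit was tested on simulated data.

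Regions named were, per direction, the 10 of lowest p for deletion where fewer than 10 passed with groups apart, the 4 for age and the 3 for age dependence, the 5 richest in CpG sites, and the 5 shared with the maternal table by the smaller difference of both. Members, lists and tests were chosen with earlier results of these data known. Alternatives were the log2 odds scale (levels limited to 0.01 to 0.99), no variance trend, centring, at least 10 CpG sites, other covariates, and leaving out libraries.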

Additional observations from a re-analysis of the deposited data

Results flagged for a closer look

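In groups of 6 libraries, a library was noted where its gap to the nearest other exceeded Dixon's 95% critical value for the range of the group. This held in 4 of 100 groups examined, the deletion and WT groups of the median level and of 49 named regions. In groups not picked on their values, chance gives about 5%. Most of these regions were picked on the same levels and the groups mix ages, so that share need not hold here.

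For the median level over regions, P9 WT replicate 3 was apart from the other WT libraries at 73.1%, with the next at 76.6%. At chr7:123398328-123399102, P9 WT replicate 2 was lowest at 74.3%, with the next WT library at 83.3%. At chr5:155802210-155803142, P9 deletion replicate 1 was lowest at 53.7%, with the next deletion library at 79.0%. At chrX:107763111-107763486, P2 WT replicate 4 was lowest at 1.43%, with the next WT library at 26.8%.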

How the results depend on the processing

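Fitted to both ages, the count of 1 called region became 0 on the log2 odds scale, without the 2 maternal-labelled libraries, without the variance trend and with at least 10 CpG sites, and 0 within series JL5 or within JL3 and JL4 (these last chosen after seeing the data). The cause was not tested, apart from the fewer samples or regions that some of these have. Leaving out each library gave 0 to 2 calls for both ages, 0 to 3 at P2, 0 to 1 at P9, 0 to 2 for age dependence and 0 to 0 for age (817 to 1000 regions at an unadjusted p under 0.05 there). The calls at P2 arose without P2 WT replicate 3 (1), P2 WT replicate 4 (3) or P2 deletion replicate 3 (2), and those for age dependence without P2 WT replicate 4 (1) or P2 deletion replicate 3 (2). Such fits leave 1 library in an arm, which is assumed to vary like the other groups. The age effect had 2 calls with the name series as covariate. The median level per library, deletion minus WT, turned to −0.0246 without the maternal-labelled libraries, and ran from −0.585 to 0.352 when each library was left out. Regions shared with the maternal table numbered 486 at the stricter overlap. Among single regions, each followed in the result it was named for, the sign turned at those rich in CpG sites. For chr1:11906731-11907334, leaving out each library gave −1.75 to 11.1 points, below 0 without the maternal-labelled deletion library or P9 WT replicate 1. For chr1:11915917-11916826 it gave −0.369 to 7.31 points, below 0 without P9 WT replicate 1, and the difference was −0.985 within JL5. For chr14:46565208-46566204 it gave −6.63 to 7.74 points, below 0 without P2 WT replicate 4, P2 deletion replicate 3, the maternal-labelled deletion library, P9 WT replicate 1 or P9 deletion replicate 2, and the difference was −7.14 within JL5. The other values for single regions, each in the result it was named for, kept their direction and their side of the threshold in 955 cases. They lost a call in 14 (all for the called region) and gained 1. The deletion difference also turned sign at regions named for age or age dependence. Without P2 WT replicate 3 it went from 0.686 to −2.53 points at chr10:15211992-15212944 (5 CpG sites). Without P9 WT replicate 3 it went from 2.28 to −1.57 points at chr3:154534361-154534508 (5 CpG sites). Without the maternal-labelled deletion library it went from −2.16 to 0.121 points at chr9:82618742-82619030 (7 CpG sites). Depth is unknown, so the precision of single levels is too. No paired analysis was possible because the labels number no replicates and tie no libraries to a litter; the numbers used here follow accession order.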
